A study of Saccharomyces cerevisiae with 22 samples.

Results

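The binding of Sus1 was described at 60 genes for ribosome biogenesis factors of Saccharomyces cerevisiae, out of 6002 nuclear protein-coding genes. The 60 genes were taken from a list of names and located by symbol in the RefSeq annotation of the sacCer3 genome. They comprised 7 proteins of small nucleolar ribonucleoprotein particles (snoRNPs), 18 factors of the small subunit processome, 7 DEAD-box RNA helicases, 7 GTPases and methyltransferases, and 21 other factors of large subunit assembly. Sus1 is a small subunit of the SAGA, SLIK and TREX-2 complexes, and it was mapped by ChIP-exo, in which an exonuclease trims immunoprecipitated DNA up to the crosslinked protein. All strains were of the BY4741 background, with the alleles ura3-Δ0, met15-Δ0, leu2-Δ0 and his3-Δ1, and carried SUS1-MYC::HIS3. They were the otherwise wild type (WT) strain, spt8Δ (KanMX4), and a strain that the labels call an spt7 deletion and that the study describes as a C-terminal truncation of Spt7 (KanMX4), here called the spt7 mutant. In the study's description, the mutants were used to follow Sus1 when SLIK but not SAGA was present. Cultures in YPD were kept at 25 °C, or shifted abruptly to 37 °C for 15 min and returned to 25 °C for crosslinking with 1% formaldehyde. Each of the 3 strains had a deposited list of peaks at each temperature, 6 lists in all. Libraries of the untagged strain were not analysed here, so no background from an untagged strain stands beside the values.

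Ribosome biogenesis takes place largely in the nucleolus, where RNA polymerase I makes the ribosomal precursor RNA. snoRNPs modify this RNA, the small subunit processome folds and cleaves it, and helicases, GTPases and assembly factors carry both subunits through maturation. The genes for these factors form a regulon in yeast: they are transcribed together in growing cells, are repressed together in stress, and often carry the PAC and RRPE elements in their promoters.

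The lists held between 16593 and 20179 peaks, and the lowest local background under a peak ranged from 5.98 to 36.3 reads, so the depth of the lists differed. The median fold enrichment of a peak over its background ranged from 2.33 to 3.49. Because each condition had a single list, no replicate error could be given and no comparison between conditions was tested; the intervals below cover counting error only. The summit, the highest position of each peak, was assigned to the 500 bp before the start codon (upstream), to the coding region, or to the 150 bp after the stop codon. SPT8 had 0 coding summits in every list, WT included, so the peaks could not check the spt8Δ label. SPT7 had 7 and 8 coding summits in the spt7 mutant at 25 and 37 °C, beside 9 and 10 in WT. Coding sequence of SPT7 was therefore among the reads of the spt7 mutant.

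The PAC and RRPE elements were frequent in the promoters of the 60 genes. The PAC core, searched as CGATGAG on both strands of the 500 bp upstream, was present in 44 of 60 genes (73.3%), in 56.6% of 106 other genes of the pathway, in 2.92% of 137 ribosomal protein genes and in 9.51% of all genes. The RRPE core, searched as AAAATTTT, was present in 52 of 60 (86.7%), against 12.4% of all genes, and both elements were found in 39 (65.0%), against 3.30%. Neither core contains the other, and a match is only a match of letters. The following stretches, in sacCer3 and 5′ to 3′ on the strand of the gene, show the PAC core in capitals for 4 of the 5 genes with an upstream summit in 5 lists and for NUG1. CTCATCG is the same core read from the other strand. The other of those genes, DBP9, had RRPE matches and no PAC match, and its summits are described below.
DBP2 (chr14:413473-413501, forward strand): ttacgccgatgCTCATCGcagaaaatttt
ENP1 (chr2:714559-714587, reverse strand): tttttaaaaatCGATGAGctcccacttct
HAS1 (chr13:851681-851709, reverse strand): attagctttagCGATGAGatgagatttta
NOP2 (chr14:510398-510426, forward strand): aaaattttcatCTCATCGcagaataagtt
NUG1 (chr5:162608-162636, forward strand): ttcgagcgaggCGATGAGatgagctaatt

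Sus1 summits were mostly not at these elements. Over the 60 genes there were 49 PAC matches, with a median position of -124 bp from the start codon, and 34 of them lay between -200 and -101. Of the 175 upstream summits in the 6 lists together, 12 (6.86%) lay in that stretch, compared with 13.4% over all genes and 18.8% over the ribosomal protein genes. The summits were more frequent farther out, with 64 (36.6%) between -500 and -401, against 27.3% over all genes. A summit of any list came within 50 bp of a PAC match at 9 of 49 matches and of an RRPE match at 9 of 65. The same was not counted for matches in other genes or for other positions, so these counts have no baseline. Of the PAC elements shown above, that of DBP2 lay 3 bp from a summit of WT at 25 °C and that of NOP2 lay 11 bp from a summit of spt8Δ at 25 °C. The upstream windows were also poor in GC, with a median of 34.4% against 36.6% over all genes, and a median of 30.2% of their length lay in a neighbouring coding region, against 10.1%. Of the upstream summits themselves, 31.0% (spt8Δ, 25 °C) to 60.7% (the spt7 mutant, 37 °C) by list lay in another coding region. Over all genes the shares were 27.5% (WT, 37 °C) to 35.8% (the spt7 mutant, 25 °C). The part of GC or of neighbouring coding regions in the distribution of summits was not tested.

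**Figure D1:**
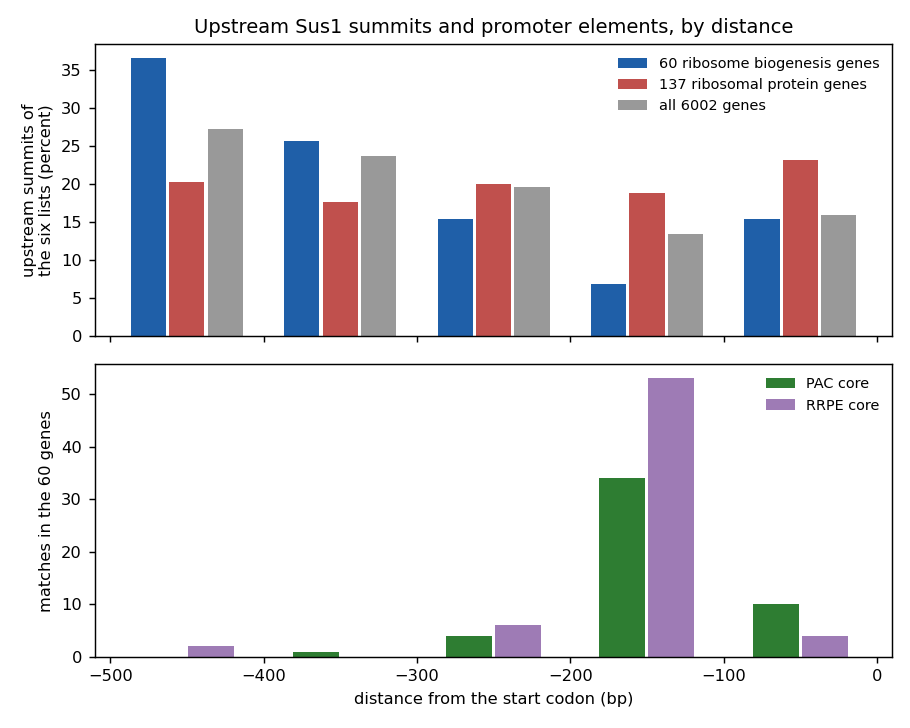
Distance of upstream Sus1 summits from the start codon in bins of 100 bp (upper panel, percent of the upstream summits of the 6 lists together, for the 60 ribosome biogenesis genes, 137 ribosomal protein genes and all 6002 genes) and number of PAC and RRPE core matches in the same bins (lower panel, 60 genes). The bin from -200 to -101 holds 34 of 49 PAC matches and 6.86% of the 60 genes' upstream summits.

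In each list taken singly, and over the whole 500 bp, the share of the 60 genes with an upstream summit was close to that of the genome. In WT, 22 genes (36.7%) had an upstream summit at 25 °C, where 39.7% of all genes had, and 30 (50%) at 37 °C, where 44.8% of all genes had. In the spt7 mutant the numbers were 25 (41.7%) at 25 °C and 23 (38.3%) at 37 °C, beside 38.0% and 40.8% of all genes. In spt8Δ they were 24 (40%) at both temperatures, beside 41.8% and 40.2%. No gene had an upstream summit in all 6 lists, as 5.80% of all genes did, and 5 genes had it in 5 lists (8.33%, against 14.7% of all genes in 5 or 6 lists). When bases inside other coding regions were left out, 14 and 21 genes had an upstream summit in WT at 25 and 37 °C (23.3% and 35.0%, against 28.1% and 33.6% of all genes). The numbers were then 15 and 10 in the spt7 mutant (25.0% and 16.7%, against 25.0% and 28%) and 17 and 11 in spt8Δ (28.3% and 18.3%, against 31.0% and 29.4%).

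The 5 genes with an upstream summit in 5 lists were DBP2, DBP9, ENP1, HAS1 and NOP2. DBP2, DBP9 and HAS1 encode DEAD-box helicases, ENP1 a factor of the small subunit precursor, and NOP2 a methyltransferase of the large subunit rRNA. In HAS1 the summits were at -182 (WT, 25 °C), -375 (WT, 37 °C), -456 (the spt7 mutant, 25 °C), -442 (the spt7 mutant, 37 °C) and -406 (spt8Δ, 37 °C), so the lists marked different positions of the same window. DBP9 had summits at -83 and -491 in WT at 25 and 37 °C, at -336 in the spt7 mutant at 25 °C, and at -117 and -402 in spt8Δ at 25 and 37 °C. ENP1 differed from both in that its summits lay close together, with 1 between -430 and -493 in each of its 5 lists. These lay inside the coding region of the neighbouring gene HIS7, and the spt7 mutant at 37 °C had another summit at -246. The upstream window of DBP9 also lay partly in another coding region (35.0% of its length, against 0% for HAS1). Which of the DBP9 summits fell there was not counted. The fold enrichment of the HIS7 summits was 5.52 and 4.30 in WT at 25 and 37 °C, 2.02 and 2.98 in the spt7 mutant, and 2.71 in spt8Δ at 37 °C. No upstream summit was found in any list for 6 genes (10%, against 16.9% of all genes): CIC1, EBP2, NOC3 and SSF1 of the large subunit, and IMP4 and PWP2 of the small subunit processome. SSF1 has a close paralog, SSF2, and reads shared between the copies would leave its values uncertain.

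**Figure D2:**
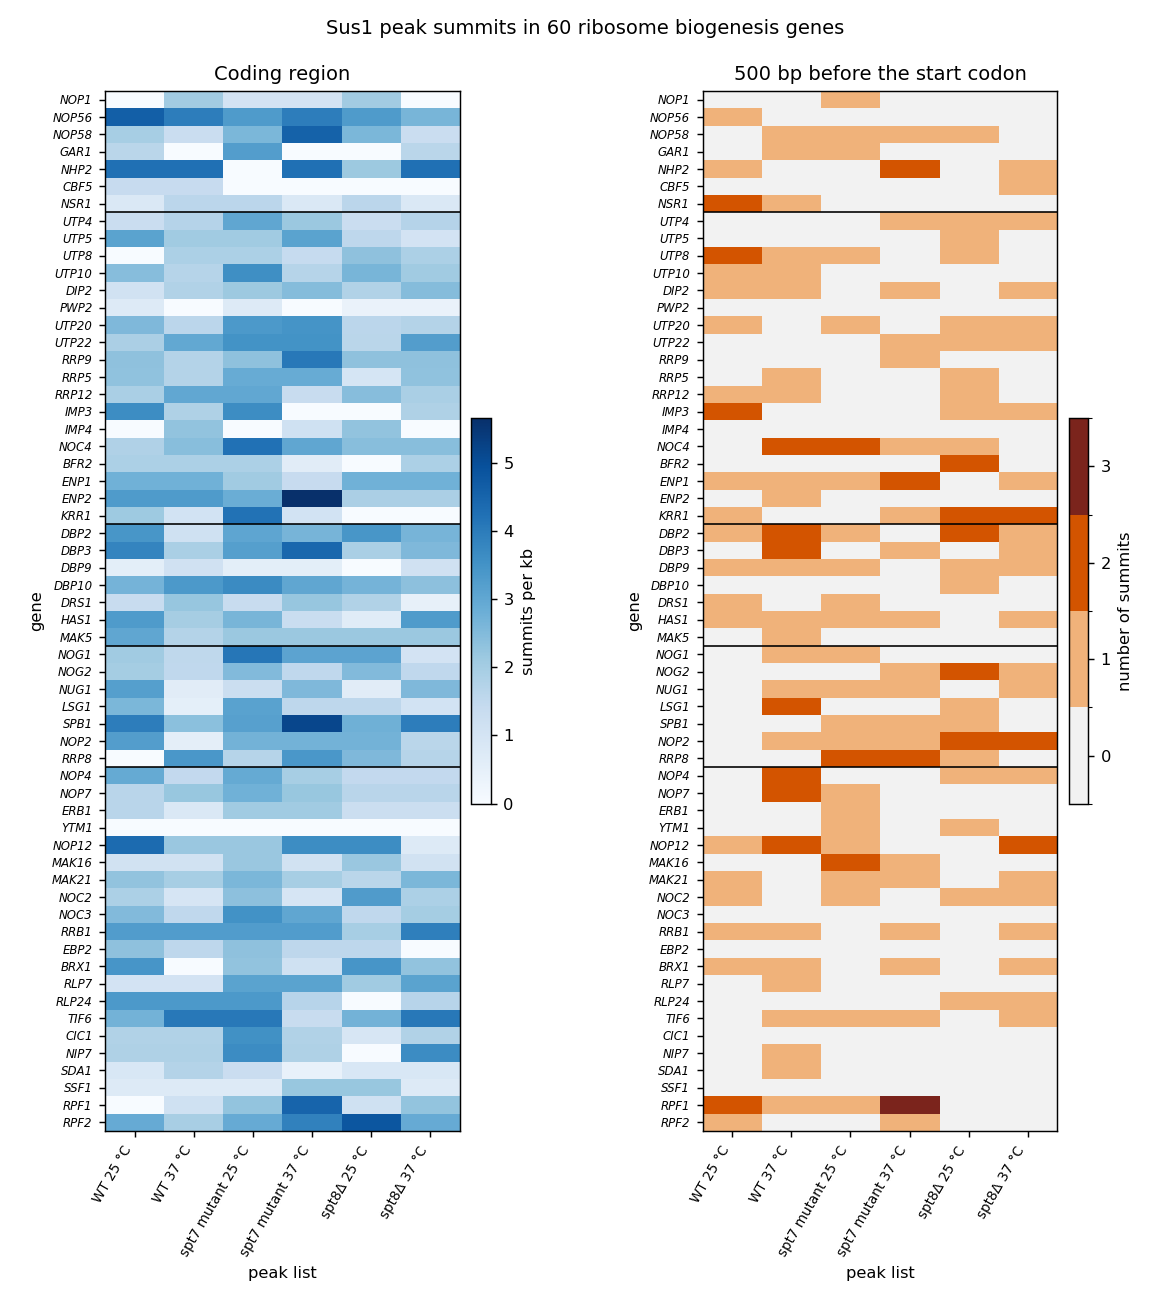
Coding summits per kb (left, blue scale) and number of upstream summits (right) of each of the 60 genes in each of the 6 lists, with black lines between the role groups (from the top: snoRNP proteins, small subunit processome, DEAD-box helicases, GTPases and methyltransferases, large subunit assembly factors). Most genes have coding summits in all lists, YTM1 has none, and upstream summits change from list to list.

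In the coding regions the 60 genes held more summits per length than the genome. A coding summit was present in 54 genes (90.0%) in WT at 25 °C, where 74.7% of all genes had at least 1, and in 56 (93.3%) at 37 °C, beside 77.3%. In the spt7 mutant it was present in 56 (93.3%) and 55 (91.7%) at 25 and 37 °C, beside 75.2% and 76.3%, and in spt8Δ in 51 (85.0%) and 54 (90.0%), beside 74.8% and 72.1%. In total 42 genes (70.0%) had a coding summit in all 6 lists, against 50.1% of all genes. The 60 genes are longer than most, with a median coding length of 1630 bp against 1200 bp, so densities are the fairer measure. Summits per kb of coding sequence were 2.15 and 1.81 in WT at 25 and 37 °C, 2.58 and 2.35 in the spt7 mutant, and 1.83 and 1.87 in spt8Δ. Over all genes the densities were 1.57 and 1.59, 1.71 and 1.91, and 1.5 and 1.59, in the same order.

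The ratio of the density in the 60 genes to that of all genes was 1.37 (95% Wilson interval 1.21 to 1.55) in WT at 25 °C and 1.13 (0.989 to 1.30) at 37 °C. It was 1.51 (1.35 to 1.69) and 1.23 (1.09 to 1.38) in the spt7 mutant, and 1.22 (1.06 to 1.39) and 1.17 (1.03 to 1.34) in spt8Δ. The ratio was lower at 37 °C in each strain, with overlapping intervals in WT, the spt7 mutant and spt8Δ, and without a replicate list this difference was not tested. For spt8Δ it was 1.17 at both temperatures when only peaks with a -log10 q of at least 5 were kept. The 106 other genes of the pathway (RNA polymerase I subunits, further factors of both subunits, and regulators) had ratios of 1.07 and 1.00 in WT, 1.16 and 1.05 in the spt7 mutant, and 1.08 and 0.980 in spt8Δ. The ribosomal protein genes had ratios of 1.55 and 1.32, 1.63 and 1.36, and 1.67 and 1.44, above those of the 60 genes in each list and also lower at 37 °C. Coding density moved with base composition: over all genes it was 1.66 to 2.16 per kb in the 2001 genes with the lowest GC and 1.14 to 1.41 in the 2001 with the highest. Of the 60 genes, 31 were in the low GC class, and within that class their ratio to all genes was 1.09 to 1.41, above 1 in 6 of 6 lists. It was above 1 in 5 of 6 lists in the middle class (21 genes) and in 4 of 6 in the high GC class (8 genes).

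**Figure D3:**
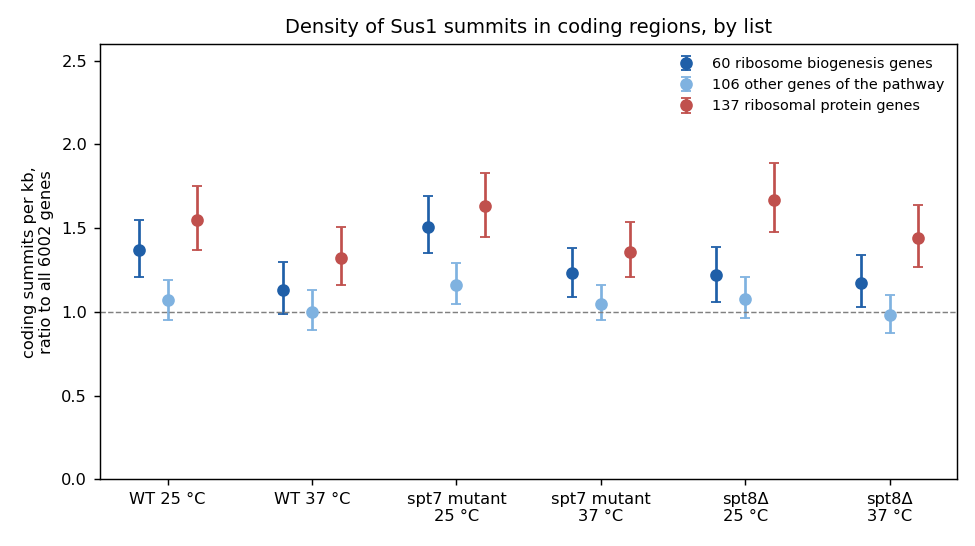
Coding summits per kb as a ratio to all 6002 genes, by list, for the 60 ribosome biogenesis genes, 106 other genes of the pathway and 137 ribosomal protein genes. Points are ratios, bars are 95% Wilson intervals that cover counting error only, and the dashed line is 1; the 60 genes lie between 1.13 and 1.51.

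By role, the small subunit processome genes had density ratios from 1.11 to 1.63 and the DEAD-box helicases from 1.25 to 1.65, above 1 in 6 of 6 lists. The GTPases and methyltransferases (0.918 to 1.67), the large subunit factors (0.989 to 1.42) and the snoRNP proteins (0.803 to 1.30) were above 1 in 5 of 6 lists. Along the coding regions of the 47 genes of at least 1000 bp, each of 10 equal segments held 8.31% to 11.2% of the summits of the 6 lists together. The last segment held the 8.31%, against 10.9% over all genes of that length. In single lists a segment held from 6.63% (spt8Δ, 37 °C) to 14.2% (the spt7 mutant, 37 °C).

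The genes differed widely among themselves. The highest mean densities over the lists were those of NOP56 (3.63 per kb), a core protein of box C/D snoRNPs, SPB1 (3.56), a methyltransferase of the large subunit rRNA, RPF2 (3.22), which helps bring the 5S particle into the large subunit, NHP2 (3.18), a core protein of box H/ACA snoRNPs, and TIF6 (3.16), which keeps the large subunit from joining the small one early. NOP56 had 7 and 6 coding summits in WT at 25 and 37 °C, 5 and 6 in the spt7 mutant, and 5 and 4 in spt8Δ. SPB1 had 10 and 6 in WT, 8 and 13 in the spt7 mutant, and 7 and 10 in spt8Δ, so the temperature with more summits differed between WT and the mutants. Upstream of SPB1 there was no summit in WT, 1 in the spt7 mutant at each temperature (at -450 and -362), and 1 in spt8Δ at 25 °C (at -331).

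The lowest mean densities were those of YTM1 (0 per kb), PWP2 (0.361), CBF5 (0.459), DBP9 (0.654) and IMP4 (0.955). YTM1 (chr15:832813-834195, forward strand), which works with ERB1 and NOP7 in large subunit assembly, was the only one of the 60 genes without a coding summit in any list. Of the 2513 genes of at least its length, itself included, 66 (2.63%) had none. Its upstream summits, at -198 in the spt7 mutant and -202 in spt8Δ at 25 °C, lay on the side of the gene where the snoRNA gene SNR8 is annotated (chr15:832332-832521). PWP2 (chr3:220457-223228, reverse strand), a structural protein of the small subunit processome, had 2 and 0 coding summits in WT at 25 and 37 °C, 2 and 0 in the spt7 mutant, and 1 and 1 in spt8Δ. Of the 636 genes of at least its length, itself included, 67 (10.5%) had no more than its 6 summits. CBF5, the pseudouridine synthase of box H/ACA snoRNPs, had 2 coding summits at each temperature in WT and 0 in all 4 mutant lists. Both WT summits at 37 °C were weak (fold enrichment 2.23 and 2.27, -log10 q 2.94 and 4.44). The share of all genes with this pattern was not counted, and a difference between strains was not tested.

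**Figure D4:**
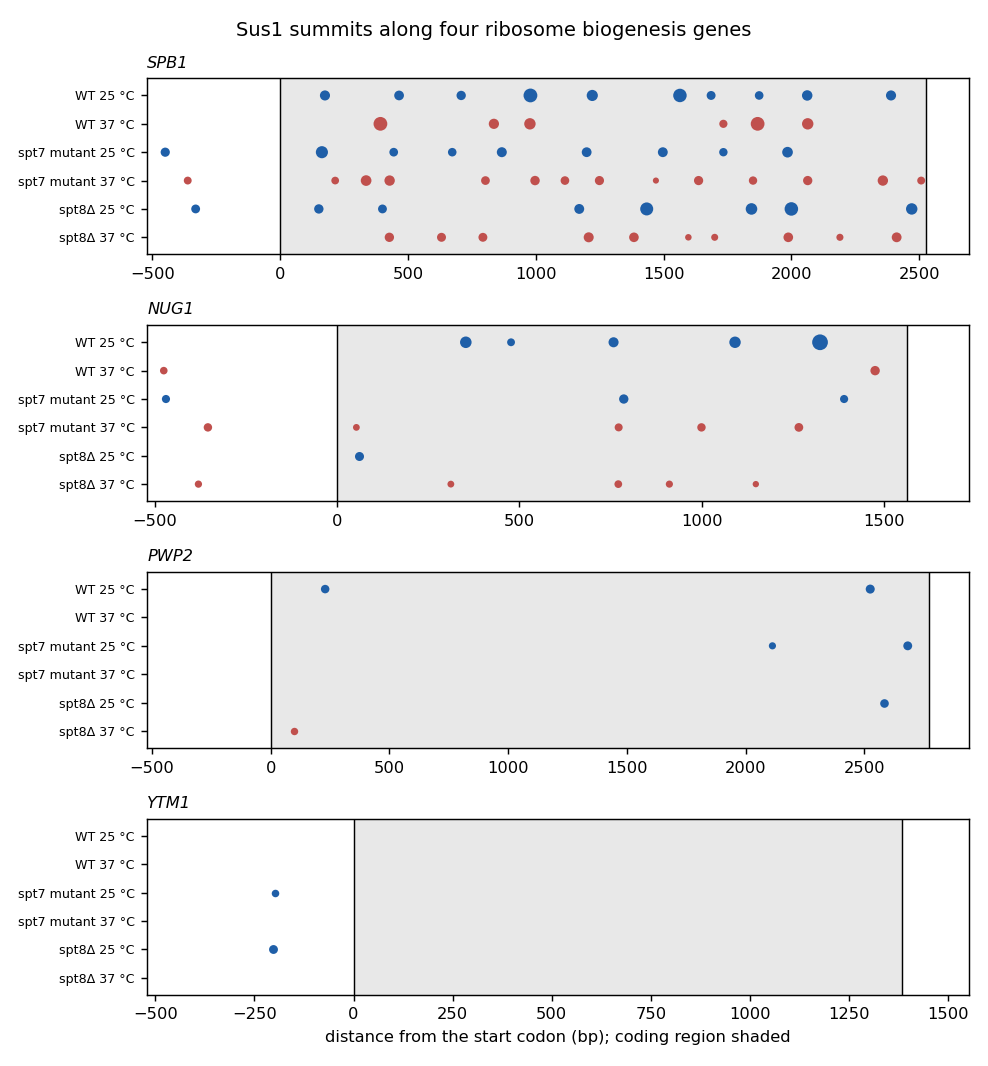
Summits of the 6 lists along SPB1, NUG1, PWP2 and YTM1, by distance from the start codon in bp. Points are summits (blue 25 °C, red 37 °C), their area grows with fold enrichment, and the coding region is shaded; SPB1 is covered along its length, PWP2 has 6 coding summits and YTM1 has none.

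With heat, fewer coding summits were counted in 30 genes of WT (50%) and more in 17 (28.3%), while over all genes 33.2% had fewer and 34.6% more. In the spt7 mutant the counts were 31 (51.7%) with fewer and 18 (30%) with more, beside 27.8% and 37.5% of all genes. In spt8Δ they were close to each other, with 24 (40%) and 23 (38.3%), beside 31.4% and 33.5%. The number of summits was the same in 13 genes of WT, 11 of the spt7 mutant and 13 of spt8Δ, beside 32.2%, 34.7% and 35.1% of all genes. A coding summit was present only at 37 °C in 5 genes of WT and only at 25 °C in 3, where 11.4% and 8.85% of all genes did so. The numbers were 2 and 3 in the spt7 mutant (8.78% and 7.68% of all genes) and 6 and 3 in spt8Δ (8.91% and 11.7%). The shares of all genes in this paragraph were not matched for coding length or number of summits.

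Fewer coding summits at 37 °C in all 3 strains were found for 8 genes (13.3%, against 4.52% of all genes): BRX1, DBP2, EBP2, LSG1, NOC2, NOG1, NOG2 and UTP10. DBP2 aside, which encodes an RNA helicase, and UTP10, a large scaffold of the small subunit processome, they encode large subunit factors; LSG1, NOG1 and NOG2 are GTPases of that pathway. UTP10 had 13 and 9 summits in WT at 25 and 37 °C, 19 and 9 in the spt7 mutant, and 14 and 11 in spt8Δ. NOG1 had 4 and 3, 8 and 6, and 6 and 2. LSG1 had 5 and 1, 6 and 3, and 3 and 2, so the count was higher at 25 °C in every strain. More coding summits at 37 °C in all strains were found for DIP2, a processome protein, and RPF1, a large subunit factor (3.33%, against 6.76% of all genes). DIP2 had 3 and 5, 6 and 7, and 5 and 7. The shares of all genes are not a like baseline for either rule. The genes described here have a median coding length of 1630 bp, against 1200 bp over all genes. A gene without a coding summit at 25 °C cannot have fewer at 37 °C. The shares were not matched for length or number of summits, and the part of either was not tested. Genes under both rules were named after their values were seen.

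**Figure D5:**
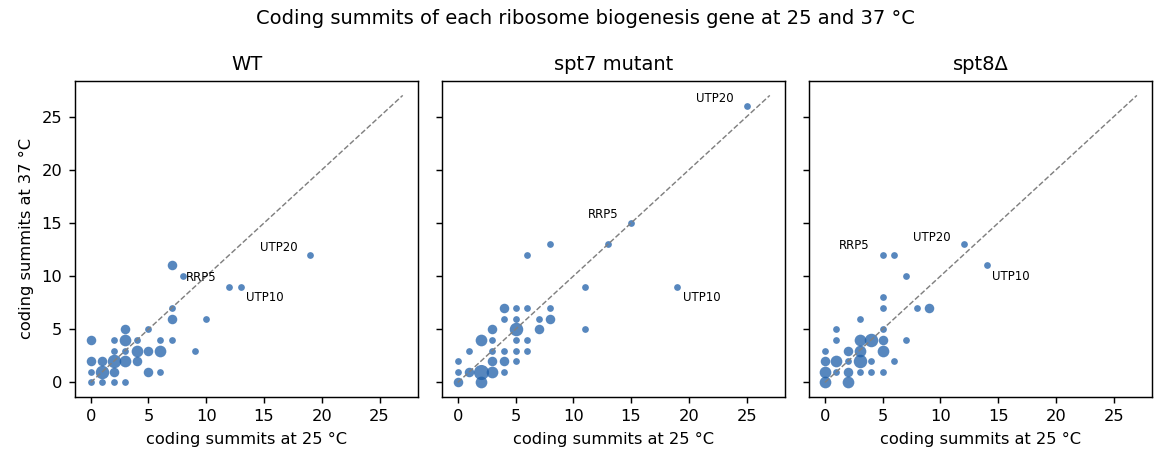
Coding summits of each of the 60 genes at 25 °C (x axis) and 37 °C (y axis) in WT, the spt7 mutant and spt8Δ; the area of a point grows with the number of genes on it, and the dashed line marks equal counts. In WT and the spt7 mutant more genes lie under the line (30 and 31) than above it (17 and 18).

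Upstream, 17 genes of WT gained a summit with heat and 9 lost it, where 22.6% and 17.5% of all genes did so. In the spt7 mutant there were 11 gains and 13 losses (18.3% and 15.5% of all genes), and in spt8Δ 12 and 12 (17.9% and 19.5%). A gain in at least 2 strains with a loss in none was found for BRX1, DBP3, DIP2, NUG1, RRB1 and TIF6 (10%, against 9.41% of all genes). A loss in at least 2 strains with a gain in none was found for DRS1, NOC2, UTP20, UTP8 and YTM1 (8.33%, against 7.56%). Both shares were near those of the genome.

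NUG1, a GTPase of large subunit export, had no upstream summit at 25 °C in WT and spt8Δ and had 1 at 37 °C in both, at -475 and -380. In the spt7 mutant it had 1 at each temperature, at -469 and -354. Another gene's coding region took up 44.0% of the upstream window of NUG1, and whether these summits belong to NUG1 was not tested. The fold enrichment of these summits was between 1.80 and 2.43, while its coding region held the highest peak of any of the 60 genes in WT at 25 °C, at +1324, with 8.44-fold enrichment (95% Poisson interval 6.94 to 10.2). UTP20, a very large processome protein, had upstream summits between -371 and -450 in WT and the spt7 mutant at 25 °C and in spt8Δ at both temperatures. They lay beside a transfer RNA gene, YNCB0006W (chr2:227075-227156), which RNA polymerase III transcribes, and whether they belong to UTP20 was not tested. RPF1 had 2 and 1 upstream summits in WT at 25 and 37 °C, 1 and 3 in the spt7 mutant, and 0 in spt8Δ. Among them were summits at -30 in WT at 25 °C, at -28 in WT at 37 °C and at -30 in the spt7 mutant at 37 °C. This position was repeated within 2 bp. With summits joined within 10 bp, 4 of 155 upstream sites of the 60 genes were in 3 lists (2.58%, against 1.89% over all genes).

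Compared with WT at 25 °C, an upstream summit was gained in 14 genes and lost in 11 in the spt7 mutant, where 16.8% and 18.6% of all genes did so, and gained in 16 and lost in 14 in spt8Δ (19.9% and 17.8%). At 37 °C it was gained in 11 and lost in 18 in the spt7 mutant (17.1% and 21.1%), and gained in 11 and lost in 17 in spt8Δ (16.6% and 21.2%). Both mutants were compared with the same WT lists.

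After the stop codon, 8 genes had a summit in WT at 25 °C (13.3%, against 9.36% of all genes) and 10 at 37 °C (16.7%, against 12.2%). In the spt7 mutant there were 7 and 3 (11.7% and 5%, against 8.65% and 10%), and in spt8Δ 7 and 5 (11.7% and 8.33%, against 10.4% and 9.20%). NOC4, a processome factor related to the Noc proteins, had a summit there in 5 lists, and IMP3, MAK5, RRB1 and TIF6 in 3, so that 5 genes had it in at least 3 lists (8.33%, against 5.46% of all genes).

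Single positions were rarely shared between lists. When summits within 25 bp were joined, the coding regions of the 60 genes held 974 sites, of which 644 (66.1%) were in a single list, compared with 67.3% over all genes. None was in all 6 lists and 4 (0.411%) were in 5 lists, compared with 0.0915% and 0.763% over all genes. The sequences of these 4 sites, and of the site after the stop codon of NOC4, are given here to show positions that 5 lists shared. The upstream window of ENP1 also held a site found in 5 lists, inside the coding region of HIS7. At RRP8 a site found in 5 lists, inside the coding region of STN1, crossed the outer edge of the upstream window. RRP8 itself had upstream summits in 3 lists. Each sequence is written 5′ to 3′ on the strand of the gene, in sacCer3, and capitals mark the bases at which a summit of any list fell.
MAK5 (chr2:529496-529553, forward strand): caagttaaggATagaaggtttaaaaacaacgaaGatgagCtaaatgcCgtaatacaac
MAK21 (chr4:571394-571479, forward strand): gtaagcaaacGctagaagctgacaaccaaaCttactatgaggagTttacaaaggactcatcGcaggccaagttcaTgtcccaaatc
UTP10 (chr10:215059-215133, reverse strand): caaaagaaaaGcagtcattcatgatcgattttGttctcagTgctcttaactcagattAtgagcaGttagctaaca
DBP2 (chr14:415976-416023, forward strand): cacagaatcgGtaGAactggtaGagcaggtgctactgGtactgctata
NOC4 (chr16:819606-819635, reverse strand): ttgcctaggaAaAaaAcCtGggtcaaaaat

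At DBP2, 2351 bp after the start codon, the 5 summits spanned 27 bp, with fold enrichment 4.44 in WT at 37 °C, 2.30 and 3.14 in the spt7 mutant at 25 and 37 °C, and 3.72 and 2.55 in spt8Δ. At UTP10 the fold enrichment was 3.27 in WT at 37 °C, 3.74 and 2.17 in the spt7 mutant, and 7.25 and 2.44 in spt8Δ. The NOC4 site was the tightest, spanning 9 bp at 145 bp after the stop codon, with 5.68 in WT at 25 °C, 4.04 and 2.42 in the spt7 mutant, and 2.69 and 3.48 in spt8Δ. It lay 14 bp from the end of YNCP0020W (chr16:819529-819602, forward strand), a gene for an isoleucine transfer RNA, and whether the peak belongs to NOC4 was not tested. The 4 coding sites were at least 2369 bp from the nearest transfer RNA gene.

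The highest peaks of the 60 genes in each list lay at percentiles from 98.1 to 99.6 of that list by fold enrichment. Besides NUG1 they were in NOC4 (9.07-fold, interval 7.13 to 11.4) in WT at 37 °C, DBP2 (6.81, 5.79 to 7.95) and UTP20 (4.67, 4.0 to 5.42) in the spt7 mutant at 25 and 37 °C, and UTP10 (8.90, 7.07 to 11.1) and UTP22 (4.89, 4.13 to 5.75) in spt8Δ. Each was in the coding region. As the highest of 207 to 296 coding peaks per list, each was picked to have a high percentile. Of the coding peaks of the 60 genes, 11.7% and 8.70% were among the highest 10% of the list by fold enrichment in WT at 25 and 37 °C, 13.5% and 7.41% in the spt7 mutant, and 11.4% and 8.41% in spt8Δ. The same shares for all genes were 10.2% and 10.2%, 9% and 9.27%, and 9.39% and 9.08%, and those for the ribosomal protein genes were 21.8% and 18.1%, 22.0% and 19.9%, and 17.9% and 16.2%. The share was lower at 37 °C in each strain for the 60 genes, on 18 to 40 peaks per list.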

How the data were processed

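Per the labels, Sus1-MYC ChIP-exo libraries were made in 3 samples per strain and temperature, whereas the study describes fewer replicates; how replicates entered a list, the peak caller and its control are not given in the sources used here. The submitters' processing notes name CASAVA 1.7 and BWA 0.6.2, and the study's methods name another BWA version, with the sacCer3 genome. The deposited lists give for each peak a fold enrichment (a ratio of height to local background), a -log10 p-value and -log10 q-value, and an integer score. Only peaks with a -log10 q of at least 1.30 were in the lists. Peak heights were solved from the deposited fold and -log10 p, taking a Poisson tail and a pseudocount of 1 read, and came out whole within 0.05 for at least 99.99% of the solved peaks of each list. The scores were not used.

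Coding regions ran from start to stop codon, introns included, in the RefSeq annotation of sacCer3. Summits were counted in the 3 windows, and densities were summed summits over summed kb. Wilson and exact Poisson intervals (95%) treat reads and summits as independent and cover counting error only. The 60 genes, the 106 other genes of the pathway, of which all were found (2 by an older name), and the rules were chosen with earlier results of these data known. Named genes were SPB1 and NUG1, those with upstream summits in 5 or 6 lists or in none, those gaining or losing them with heat in at least 2 strains, the 5 highest and 5 lowest mean coding densities, and the highest peak in each list. Genes with coding changes shared by the strains, with summits after the stop codon in at least 3 lists, with sites in 5 lists, and the upstream summits of RPF1 were named after their values were seen. Counting and height solving were tested on simulated data. Alternatives were stricter peaks, equal peak numbers, peak midpoints, other window sizes, removal of other coding regions, and other joining distances. Computations used Python 3.11.15, numpy 2.4.6, pandas 2.3.3, scipy 1.17.1 and matplotlib 3.10.9.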

Additional observations from a re-analysis of the deposited data

Results flagged for a closer look

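With heat, the number of the 60 genes with an upstream summit changed by 8 in WT (from 22 to 30) and by -2 in the spt7 mutant (from 25 to 23), a difference of 10 genes between the strains. In spt8Δ it changed by 0 (24 and 24). Over all genes the share with an upstream summit went from 39.7% to 44.8% in WT, from 38.0% to 40.8% in the spt7 mutant and from 41.8% to 40.2% in spt8Δ. After the stop codon the number changed by 2 in WT, by -4 in the spt7 mutant and by -2 in spt8Δ, so that WT differed from the spt7 mutant by 6 genes and from spt8Δ by 4. Over all genes the share after the stop codon went from 9.36% to 12.2% in WT, from 8.65% to 10% in the spt7 mutant and from 10.4% to 9.20% in spt8Δ. These stand here because WT and the mutant moved in opposite directions. The opposite directions were not kept under every setting. Upstream, the number also rose in the spt7 mutant with a -log10 q of at least 5 (from 19 to 21, and from 16 to 21 in WT) and with a window of 300 bp (from 4 to 8, and from 10 to 16 in WT). After the stop codon, a window of 300 bp gave a fall in all 3 strains, from 17 to 15 in WT, from 17 to 12 in the spt7 mutant and from 15 to 13 in spt8Δ. In spt8Δ the number was 5 at both temperatures with a -log10 q of at least 5, and rose from 4 to 5 with the midpoint of the peak. Each strain had a single list per temperature, and the differences were not tested.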

How the results depend on the processing

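Of 170 values recomputed under alternatives, 136 stayed within the limits set for a change and 34 moved, most with the window. A density ratio counted as moved outside its Wilson interval, and a number of genes past a fixed fold change from the reported number. Lists are given as WT at 25 and 37 °C, then the spt7 mutant, then spt8Δ. With 300 bp upstream, 10, 16, 4, 8, 13 and 7 genes had an upstream summit, and with 1000 bp 48, 50, 47, 41, 42 and 41. Without other coding regions the number moved in 4 lists, to 14 in WT at 25 °C, 15 and 10 in the spt7 mutant, and 11 in spt8Δ at 37 °C. With 300 bp after the stop codon it was 17 in WT at 25 °C, 17 and 12 in the spt7 mutant, and 15 and 13 in spt8Δ. With a -log10 q of at least 5, summits after the stop codon were left in 5 and 6 genes of WT, and with peak midpoints in 1 of the spt7 mutant at 37 °C and 4 of spt8Δ at 25 °C. Upstream gains with heat were 9 in WT and 7 in the spt7 mutant with 1000 bp, 4 in spt8Δ with 300 bp, and 4 in the spt7 mutant and 6 in spt8Δ without other coding regions. Upstream losses in the spt7 mutant were 4 with 300 bp. Coding losses were 6 in WT with a -log10 q of at least 5 and 5 in the spt7 mutant with equal numbers of peaks. Joining summits within 50 bp gave 9 coding sites shared by all 6 lists (1.27%, against 1.17% over all genes). Within 10 bp there were 0 (against 0.00409% over all genes). Apart from upstream counts without other coding regions, the numbers of genes in this paragraph were not set beside all genes under the same setting. A wider or narrower window holds more or fewer summits by construction; the cause of the other moves was not tested. The coding density ratio moved under none of the alternatives run; it was 1.15 to 1.43 without the 3 longest genes (UTP20, UTP10 and RRP5), an alternative chosen after seeing the data, as was the restriction to the low GC class of genes (1.09 to 1.41). No paired analysis was possible because each condition had a single list, and no replicate could be left out for the same reason. Depth differed between lists, so a missing summit may lie under the detection limit of its list.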
